A study of Homo sapiens with 12 samples.

Results

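The 4 libraries described here, of 12 in the series, compared wild-type (WT) neural progenitor cells (NPCs) at passage 4 (WT-NPC-P4, 2 libraries) with WT NPCs at passage 2 (WT-NPC, 2 libraries). All were made from H1, an established human embryonic stem cell line, so every value comes from 1 line. The libraries were chosen by their titles, and every one of the 13454 genes of 58302 in the files with a mean raw count of at least 20 over the 12 libraries was tested. The titles name passage 4. That the other NPCs were at passage 2 was taken from the study's text. To make the NPCs, embryonic stem cells were treated with a pair of SMAD inhibitors, rosettes were picked, and the cells were grown as floating neural spheres in N2B27 medium with bFGF and EGF and passaged weekly. The other groups of 2 libraries each were dKO-NPC and dKO-NPC-P4, NPCs at the same passages with UTX (KDM6A) and JMJD3 (KDM6B) knocked out, and WT-D28 and dKO-D28, passage 2 NPCs of each genotype cultured for 28 days with GDNF, BDNF and cAMP in place of FGF2 and EGF. The dKO cells were knock-out clones, and how many clones entered a library was not given in the sources used here. The question addressed was how gene expression differed between early and later passage in WT NPCs. Nothing in the labels said that the 2 libraries of a group came from separate cultures, so p-values measure the spread between libraries, which may be technical.

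Neural progenitors of the developing cortex change with time. Early neuroepithelial cells and radial glia express RNA-binding proteins and chromatin factors of the LIN28, HMGA and IGF2BP families, later radial glia express NFI transcription factors and genes of outer radial glia and astrocytes, and excitatory neurons arise through intermediate progenitors in which NEUROG2, EOMES and NEUROD factors are switched on in turn. Forebrain progenitors also carry a regional identity, dorsal (cortical), ventral (GABAergic), eye field or hypothalamic, which is read from sets of homeobox and other transcription factors.

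The 4 libraries differed in depth and in some measures that separated both genotypes' passage 2 libraries from all other libraries. WT-NPC held 756942 and 1328252 counts and WT-NPC-P4 held 3174410 and 4220037. The levels below are CPM, counts of a gene scaled by TMM to a common library total over the tested genes, and 3 counts over both libraries of a group equalled 1.42 CPM in WT-NPC and 0.436 CPM in WT-NPC-P4. Spearman's rho over the tested genes was 0.966 between the WT-NPC libraries and 0.987 between the WT-NPC-P4 libraries, against 0.846 to 0.854 between passages. Mitochondrial genes took 1.79% and 1.77% of the counts in WT-NPC and 3.74% and 4.37% in WT-NPC-P4. In dKO NPCs the shares were 1.66% and 1.73% at passage 2 and 3.70% and 3.73% at passage 4. RPL21, a ribosomal protein gene, read 9.14 and 2.98 CPM in WT-NPC and 209 and 182 CPM in WT-NPC-P4, and 15.0 and 7.78 CPM in dKO-NPC. EIF3CL, a translation initiation factor gene, went the other way, with 60.1 and 38.8 CPM in WT-NPC and 2.67 and 0.514 CPM in WT-NPC-P4. RPS26 read 11.7 and 4.47 CPM and 48.4 and 49.6 CPM. These 3 genes have near-identical copies, so their counts are uncertain. The labels gave no batch, and a difference in library making or sequencing between the passage 2 libraries and the others cannot be told apart from passage within the WT libraries.

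**Figure D1:**
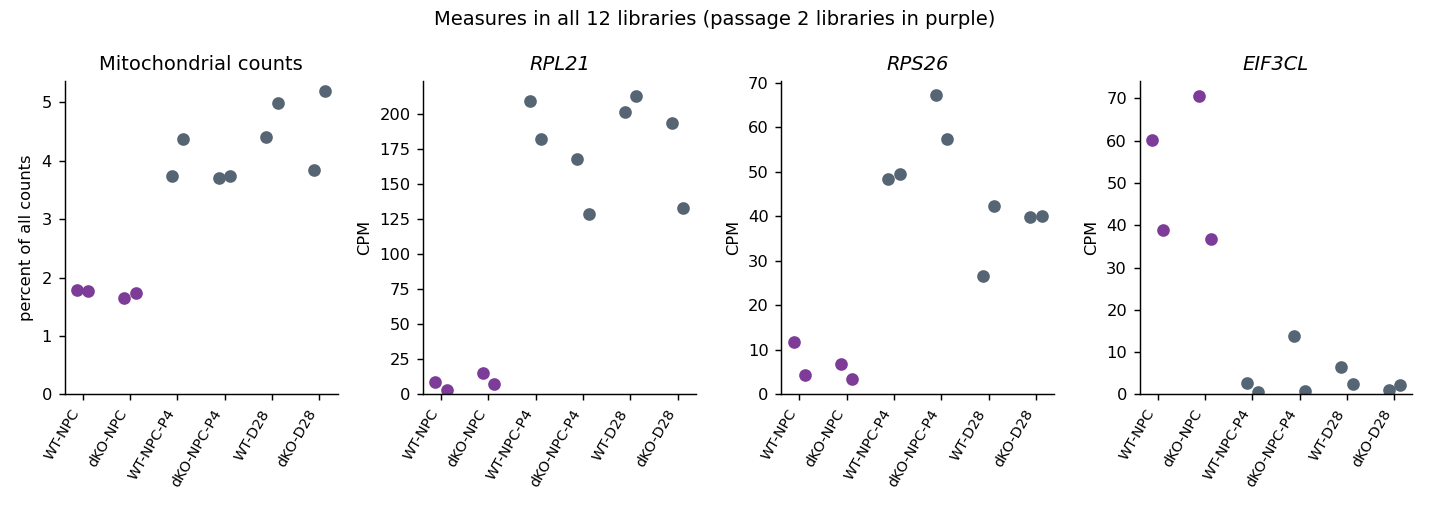
Percent of counts from mitochondrial genes and CPM of RPL21, RPS26 and EIF3CL (y axes) in the 2 libraries of each of the 6 groups (x axis). The 4 passage 2 libraries, WT and dKO, lie apart from the other 8 in all 4 panels, for example at 1.66% to 1.79% mitochondrial counts against 3.70% or more.

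KDM6A and KDM6B, the H3K27 demethylase genes deleted in the dKO line, were not called between WT passages. KDM6A read 61.4 and 54.4 CPM in WT-NPC and 50.4 and 53.9 CPM in WT-NPC-P4, and KDM6B 157 and 184 CPM and 117 and 127 CPM. In dKO-NPC the levels were 39.8 and 38.9 CPM for KDM6A and 155 and 159 CPM for KDM6B. The study's deletion took out catalytic domains, so counts over the whole gene do not check these labels.

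In the WT NPCs 1386 genes (10.3% of those tested) were higher at passage 4 and 1277 (9.49%) lower. A gene was called where edgeR's quasi-likelihood test gave p below 0.05, without adjustment, and the levels differed more than 2-fold. With the Benjamini-Hochberg adjusted p in place of the unadjusted one, 1287 (9.57%) were higher and 1202 (8.93%) lower. The median log2 fold change of all genes tested was 0.01. Of the higher genes 474 differed more than 4-fold, and of the lower genes 394 did. A call by p and fold favors genes whose 2 passage groups do not overlap. Genes that were not called, KDM6A, PAX6 and VIM among them, did not overlap either. Non-overlap, given for single genes and lists below, therefore describes the values and adds no support to a call. Among the higher genes 1185 were protein coding and 143 were long non-coding RNAs, against 1084 and 99 among the lower genes.

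The genes with the largest rises were led by transcription factors of cortical neurons. Of the 10 with at least 20 CPM in WT-NPC-P4, NEUROD6 and NEUROD2, SLA, ADRA2A, GPR12, SCN4B, MT3, SLCO1C1, IL33 and IFI44 had no count in either WT-NPC library. Against a floor of 3 counts over both WT-NPC libraries the rises were at least 261-fold for NEUROD6, 184-fold for NEUROD2, 126-fold for SLA, 49.0-fold for ADRA2A and 16.9-fold for IFI44. ADRA2A encodes an adrenergic receptor, GPR12 an orphan receptor of brain, SCN4B a sodium channel subunit, MT3 a brain metallothionein, SLCO1C1 a thyroid hormone and anion transporter, IL33 a cytokine of astroglia and IFI44 an interferon-induced protein. The call of SLA was lost with DESeq2 (unadjusted p = 0.0557), and that of IFI44 when the libraries were thinned to equal totals (unadjusted p = 0.0799).

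The promoters of NEUROD6 and NEUROD2 are shown because these genes went from no count to the largest rises, and because proneural factors bind E-box motifs. The sequences are the 250 bases before RefSeq's gene start in GRCh38.p14, 5′ to 3′ on the gene's strand, with the motif CAGATG in capitals. NEUROD6 lies on the minus strand at chr7:31340727-31340976 and NEUROD2 on the minus strand at chr17:39607921-39608170. In GENCODE the NEUROD2 gene spans 39603536 to 39609777, so this window lies inside it and is upstream of RefSeq's start only.
NEUROD6: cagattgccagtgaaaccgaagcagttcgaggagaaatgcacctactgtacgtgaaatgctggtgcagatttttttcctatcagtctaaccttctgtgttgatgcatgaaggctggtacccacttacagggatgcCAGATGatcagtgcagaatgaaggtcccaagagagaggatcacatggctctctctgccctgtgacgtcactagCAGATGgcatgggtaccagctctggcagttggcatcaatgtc
NEUROD2: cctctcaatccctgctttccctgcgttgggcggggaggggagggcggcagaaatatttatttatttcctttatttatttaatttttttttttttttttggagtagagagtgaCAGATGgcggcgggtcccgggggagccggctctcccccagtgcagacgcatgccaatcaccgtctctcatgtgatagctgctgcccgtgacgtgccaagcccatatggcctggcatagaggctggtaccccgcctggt
The motifs CAGATG (with CATCTG on the other strand) and CAGCTG, which is its own reverse complement, were searched. NEUROD6 held CAGATG starting 115 and 42 bases before the gene start, and NEUROD2 held it 138 bases before. CAGATG was present in 12.2% of 35116 promoters of this length and CAGCTG in 14%, and 24.3% held either. The same window of EOMES, which also lies inside the gene in GENCODE, and that of NEUROG2 held neither sequence. A match is a description of the sequence and not evidence of a bound site.

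Among the 10 largest falls of genes with at least 20 CPM in WT-NPC were ANKRD1 and F13A1. ANKRD1, a YAP target in stretched cells, read 101 and 192 CPM in WT-NPC and 0.668 and 0 CPM in WT-NPC-P4, a ratio of passage 2 to passage 4 of 547 (95% interval 150.3 to 4538). F13A1, a transglutaminase, read 41.8 and 33.5 CPM and 0.334 and 0.257 CPM, a ratio of 126 (95% interval 33.7 to 1057). The others of the 10 were FOSB, LIN28A, EGR3, TGM2, MAGED4B, SFRP2, IGF2 and ATP6V1B1, of which EGR3 fell from 49.6 and 22.4 CPM to 0.334 and 0.257 CPM. Their log2 fold changes ran from -5.86 (ATP6V1B1, a proton pump subunit) to -7.79 (FOSB, an AP-1 factor). MAGED4B has a near-identical copy and its count is uncertain. TGM2 differed between the WT-NPC libraries, at 17.0 and 78.3 CPM, but both lay above the 1.00 and 0.257 CPM of WT-NPC-P4.

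In absolute level, the 5 genes that gained most CPM among those called with an adjusted p below 0.05 were MT-CO1, MT-RNR2 and MT-CO3 of the mitochondrial genome, TUBA1A and PTPRZ1, a receptor phosphatase of radial glia. TUBA1A, an alpha-tubulin of young neurons whose count is uncertain because it has close copies, rose with a log2 fold change of 1.71 ± 0.25 (SE). The 5 called genes that lost most CPM were DLK1, a non-canonical Notch ligand, EGR1, COL2A1, PXDN, a matrix peroxidase, and SLC2A1, the GLUT1 glucose transporter. SLC2A1 read 664 and 715 CPM in WT-NPC and 84.5 and 76.8 CPM in WT-NPC-P4, and PXDN 867 and 877 CPM and 239.5 and 219 CPM. With GC content and gene length corrected, the log2 fold changes of MT-CO1, MT-RNR2, MT-CO3, TUBA1A and PTPRZ1 were 0.56, 0.68, 0.38, 0.67 and 0.60, below the 2-fold threshold.

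Genes were also read in lists by role. A member was tested only where it passed the filter, which a gene high in 1 group alone can pass, so the counts and medians below describe the tested members and were not tested as sets. They are to be read against the 10.3% called higher and the 9.49% called lower among all genes in WT NPCs. Counts in dKO NPCs are to be read against 4.61% higher and 5.22% lower.

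The defining NPC markers, SOX2, SOX1, PAX6, NES, VIM and FABP7, were present at both passages. SOX1 was called lower at passage 4 (185 and 172 CPM, then 79.8 and 86.3 CPM) and FABP7 higher, as given below. SOX2, the progenitor transcription factor, read 465 and 422 CPM in WT-NPC and 491 and 515 CPM in WT-NPC-P4. PAX6, a cortical progenitor factor, read 304 and 262 CPM and 248 and 261 CPM, and the intermediate filament VIM 3709 and 3921 CPM and 4105 and 4079.6 CPM. None of the 3 was called, with log2 fold changes inside the 2-fold threshold (0.19 ± 0.11, -0.15 ± 0.25 and 0.10 ± 0.13, SE). NES, encoding nestin, stood at 1399 and 1431 CPM and 713 and 775 CPM, a log2 fold change of -0.93 ± 0.09 that did not pass the 2-fold threshold.

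Members of the NPC list moved in both directions, SOX1 and FABP7 among them. Of 22 tested members, 2 rose and 7 fell. FABP7, a fatty acid binding protein of radial glia, rose from 129 and 111 CPM to 1884 and 1719.8 CPM (log2 fold change 3.92 ± 0.62, edgeR adjusted p = 0.00296). SLC1A3, the glial glutamate transporter GLAST, rose from 106 and 82.7 CPM to 1781 and 1946 CPM (4.33 ± 0.18, adjusted p = 2.0e-10). The groups were far apart for both genes. Those that fell were SOX1, SOX3, HES1, MSI1, PROM1, HMGA2 and ZBTB16. ZBTB16, a factor of early neuroepithelium and rosettes, read 37.9 and 33.5 CPM and then 2.67 and 3.34 CPM, and SOX3 367 and 277 CPM and then 67.5 and 70.6 CPM. SOX1 (log2 fold change -1.10), PROM1, encoding CD133 (-1.82), MSI1, an RNA-binding protein (-1.74), and HES1, a Notch effector (-1.79), fell less.

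**Figure D2:**
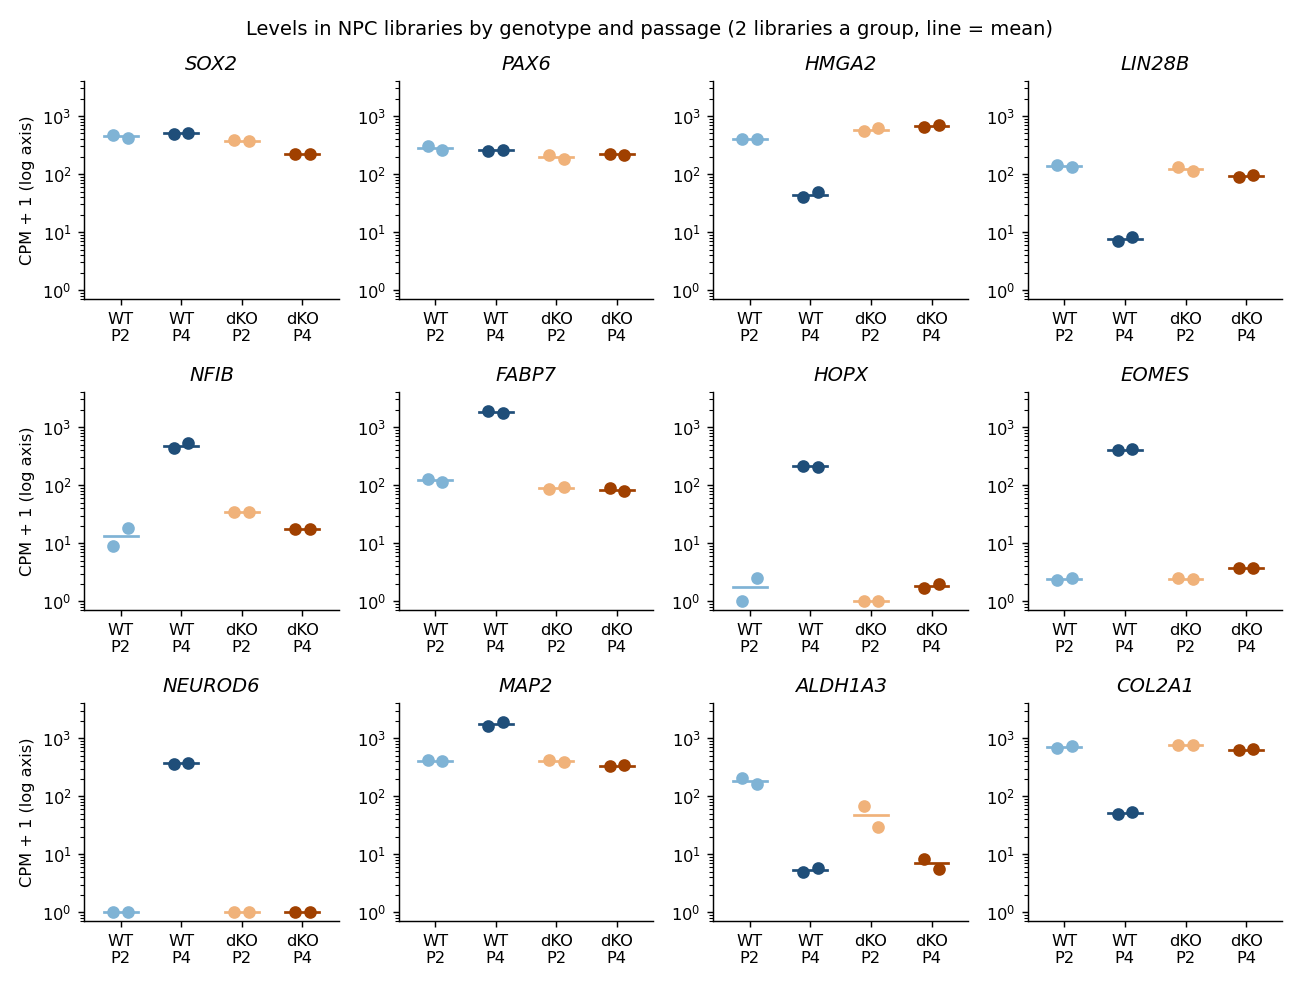
CPM + 1 on a log axis (y) of 12 genes in the 2 libraries of WT and dKO NPCs at passages 2 (P2) and 4 (P4), with lines at group means. SOX2 and PAX6 are not called in WT, HMGA2, LIN28B, ALDH1A3 and COL2A1 are lower at WT passage 4, and NFIB, FABP7, HOPX, EOMES, NEUROD6 and MAP2 are higher there and not called higher at dKO passage 4.

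The early progenitor timing list had the lowest median of the lists with at least 10 tested members. LIN28A and LIN28B block processing of let-7 microRNAs, HMGA1 and HMGA2 are chromatin proteins of growing embryonic tissue, and IGF2BP1, IGF2BP2 and IGF2BP3 bind fetal mRNAs. Of 16 tested members 12 fell and 3 rose, with a median log2 fold change of -3.15. LIN28B read 139.7 and 132 CPM in WT-NPC and 6.01 and 7.19 CPM in WT-NPC-P4 (-4.34 ± 0.23, adjusted p = 1.6e-09). LIN28A fell from 87.5 and 84.2 CPM to 1.00 and 0.514 CPM, and HMGA2 from 394 and 393 CPM to 38.8 and 47.5 CPM (-3.18 ± 0.16, adjusted p = 1.5e-09). The passages did not overlap for any of the 3. Falls were smaller for HMGA1 (-2.43) and graded among the IGF2BP genes, with -3.35 for IGF2BP1, -1.49 for IGF2BP2 and -1.37 for IGF2BP3. TRIM71, a let-7 target (log2 fold change -3.80), PRTG, a surface receptor of early neuroepithelium (-3.50), and SALL4, a zinc finger factor of early embryos (-4.58), fell too. Of 18 listed pluripotency genes 6 were tested, of which 5 fell and none rose, with a median log2 fold change of -4.08. One WT group had no count for 1 of the 6, and with that gene set at its floor the median was -3.64. The list summed to 408 to 429 CPM in WT-NPC and 76.8 to 90.7 CPM in WT-NPC-P4. Of the genes that define pluripotent cells, NANOG and ZFP42 had no counts in any of these 4 libraries. POU5F1 was also listed at 0, but so were HLA-C and RXRB of the same region of chromosome 6, which nearly all cells express, so a 0 there says nothing about the cells.

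The 3 members that rose were the NFI factors, which are known for the switch of radial glia to gliogenic competence. NFIA read 1.31 and 3.73 CPM in WT-NPC and 147 and 213 CPM in WT-NPC-P4, NFIB 7.83 and 17.1 CPM and 436 and 525 CPM, and NFIX 0 and 3.73 CPM and 151 and 168 CPM. The groups did not overlap for any of them. The log2 fold changes were 5.98 ± 0.43, 5.14 ± 0.26 and 6.06 ± 0.43 (SE), with edgeR adjusted p-values of 2.5e-07, 4.1e-09 and 7.9e-08.

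Genes of outer radial glia and astroglia rose widely. Of 23 tested members 18 rose and 1 fell, with a median log2 fold change of 2.98. HOPX, a homeodomain protein used as an outer radial glia marker, read 0 and 1.49 CPM in WT-NPC and 215 and 208 CPM in WT-NPC-P4, a ratio of 222 (95% interval 61.4 to 1838) that covers counting error only. FAM107A rose from 17.0 and 14.2 CPM to 142 and 161 CPM (3.32 ± 0.21) and PEA15, an astrocyte phosphoprotein, from 244 and 239 CPM to 1921 and 1950.2 CPM (3.01 ± 0.11). No library of 1 passage reached the range of the other. TNC, a matrix glycoprotein, stood at 49.6 and 181 CPM in WT-NPC, unequal between libraries, and at 1159 and 1184 CPM in WT-NPC-P4.

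Mature astrocyte markers rose, to at most 27.4 CPM. GFAP read 2.61 and 2.98 CPM and 21.7 and 23.6 CPM, AQP4, a water channel, 0 and 0.745 CPM and 4.68 and 5.14 CPM, and S100B no count in WT-NPC and 27.4 and 16.7 CPM in WT-NPC-P4. All 3 were called higher. In WT-D28 GFAP read 14.9 and 18.2 CPM and S100B 6.84 and 6.34 CPM, below WT-NPC-P4, and AQP4 13.6 and 13.3 CPM, above it. Outside the list, BCAN, encoding the proteoglycan brevican, read 1.31 and 0.745 CPM and then 330.1 and 329 CPM, and PTN, the growth factor pleiotrophin, 23.5 and 65.6 CPM and then 1753 and 1715 CPM. In the oligodendrocyte lineage 4 of 12 genes were tested and 2 fell, PDGFRA and CSPG4, neither of which was called without the second WT-NPC library (log2 fold changes -2.79 and -1.38 became -1.56 and -0.85). In bulk RNA a change in the number of cells of a type and a change in RNA per cell cannot be told apart, here and in the neuronal lists that follow.

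Proneural and intermediate progenitor genes rose together. Of 16 tested members of 24 listed, 13 rose and none fell, with a median of 2.16. EOMES (TBR2), which defines cortical intermediate progenitors, read 1.31 and 1.49 CPM in WT-NPC and 402 and 413 CPM in WT-NPC-P4, a ratio of 287 (95% interval 97.98 to 1391) with an edgeR adjusted p of 6.1e-12. NEUROG2, which acts before EOMES, read 1.31 and 1.49 CPM and 163 and 152 CPM, a ratio of 110.2 (95% interval 37.6 to 535). NEUROD6, a later factor of the same basic helix-loop-helix family, rose from no count to 365 and 379 CPM, and NEUROD2 to 267 and 256 CPM. In all libraries outside WT-NPC-P4, NEUROD6 had no count and NEUROD2 read 0.48 CPM or less. Both passed the filter through WT-NPC-P4 alone, so their p-values are not used as support. All 4 had at most 3 counts at passage 2, and both passage 4 libraries lay far above. INSM1 (2.35 ± 0.42), HES6 (1.91 ± 0.18) and NEUROG1 (3.78 ± 0.49) rose less.

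Genes of cortical excitatory neurons followed. Of 29 tested members 18 rose and 1, CUX2 of upper cortical layers, fell (-1.46 ± 0.30), with a median of 1.84. TBR1, a transcription factor of deep cortical layers, read 6.53 and 3.73 CPM in WT-NPC and 246 and 268 CPM in WT-NPC-P4 (5.74 ± 0.32, adjusted p = 3.6e-09). BCL11B (CTIP2), of subcortically projecting neurons, rose from 3.92 and 3.73 CPM to 92.5 and 112 CPM (4.74 ± 0.31). FEZF2, of the same layer, rose by a smaller log2 fold change of 1.73 ± 0.18, from 69.2 and 52.2 CPM. SLC17A7, the vesicular glutamate transporter VGLUT1, read 1.31 and 0.745 CPM and 70.8 and 69.1 CPM, and BHLHE22 0 and 0.745 CPM and 118 and 128 CPM. No passage 2 library approached the passage 4 level of these genes.

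Pan-neuronal genes rose by smaller factors from a higher start. Of 37 tested members 30 rose and none fell, with a median of 1.65. MAP2, a dendritic microtubule protein, rose from 416 and 405 CPM to 1645 and 1894 CPM (2.11 ± 0.18, adjusted p = 2.1e-06). DCX, the doublecortin of migrating neurons, rose from 384 and 311 CPM to 1057 and 1286 CPM (1.76 ± 0.26), and STMN2 from 295 and 247 CPM to 1026 and 1073 CPM (1.96 ± 0.28). All 3 were already high in both passage 2 libraries. NSG2, a neuronal endosome protein, had the largest rise of the list (4.39 ± 0.61). TUBB3, a neuronal beta-tubulin, stood at 56.1 and 42.5 CPM and 45.8 and 38.5 CPM (-0.20 ± 0.37, not called), but a read-through gene overlaps it in the annotation, so its count is uncertain. Outside the list the synaptic genes SEZ6 and SNCB read 3.92 and 3.73 CPM and 0 and 0.745 CPM in WT-NPC and 250.2 and 255 CPM and 20.04 and 21.8 CPM in WT-NPC-P4.

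Transmitter receptor subunits rose as well. Of 24 tested subunits of 32 listed, 17 rose and none fell. Among glutamate receptors the AMPA subunit GRIA1 rose from 60.1 and 73.0 CPM to 619.7 and 640.0 CPM (3.22 ± 0.20) and GRIA2 from 24.8 and 18.6 CPM to 338 and 317 CPM (3.96 ± 0.62). The NMDA subunit GRIN2B read 1.31 and 1.49 CPM in WT-NPC, 3 counts in all, and 128 and 146 CPM in WT-NPC-P4, a ratio of 97.2 (95% interval 33.2 to 472).

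Regional identity genes split. LHX2, a cortical selector gene, was at 234 and 229 CPM in WT-NPC and 338 and 346 CPM in WT-NPC-P4 (0.57 ± 0.16, not called). Of 23 tested forebrain patterning genes 7 rose and 7 fell. Those that rose included dorsal cortical factors. EMX1 read 0 and 2.24 CPM and 101 and 93.7 CPM, DMRTA2 2.61 and 2.24 CPM and 88.2 and 91.9 CPM, and EMX2 53.5 and 43.2 CPM and 136 and 148 CPM, with no overlap between passages for any of the 3. Those that fell included eye field and ventral genes. SIX6, an eye field factor, read 35.2 and 23.9 CPM and 0.334 and 0.771 CPM. Falls in SIX3 (-2.55), VAX1 (-2.97), FEZF1 (-2.30) and OTX2 (-2.17) passed the test too. Of 10 tested eye and hypothalamus genes 6 fell and 2 rose.

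Genes of the GABAergic ventral forebrain fell in part. Of 19 tested members 8 fell and 2 rose, and 5 fell without the first WT-NPC library. NKX2-1, a factor of the medial ganglionic eminence and hypothalamus, fell from 67.9 and 71.6 CPM to 23.4 and 22.1 CPM (-1.62 ± 0.23, adjusted p = 5.4e-05). DLX1 stood at 66.6 and 67.1 CPM and 37.7 and 46.5 CPM, and GAD1, which makes GABA, at 20.9 and 9.69 CPM and 9.69 and 9.76 CPM, neither of them called. GAD1 rests on unequal WT-NPC libraries, with a log2 fold change of 0.0055 without the first and -1.10 without the second (unadjusted p = 0.0114).

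WT-D28 cells, differentiated from passage 2 NPCs, gave a different regional pattern from WT-NPC-P4. In WT-D28 EOMES read 0.6 and 0.503 CPM, NEUROD2 0.48 and 0.402 CPM, EMX1 0.24 and 0.201 CPM and TBR1 0.12 and 0.402 CPM, all below the level of WT-NPC-P4. DLX1 read 369 and 343 CPM there, GAD1 178 and 174 CPM and NKX2-1 359 and 354 CPM, all above it. MAP2, at 1141 and 1112 CPM, and BCAN, at 185 and 173 CPM, were high in WT-D28 as in WT-NPC-P4. These values are a description. Differences of WT-D28 and of WT-NPC-P4 from WT-NPC share the WT-NPC libraries, so they were not set against each other.

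**Figure D3:**
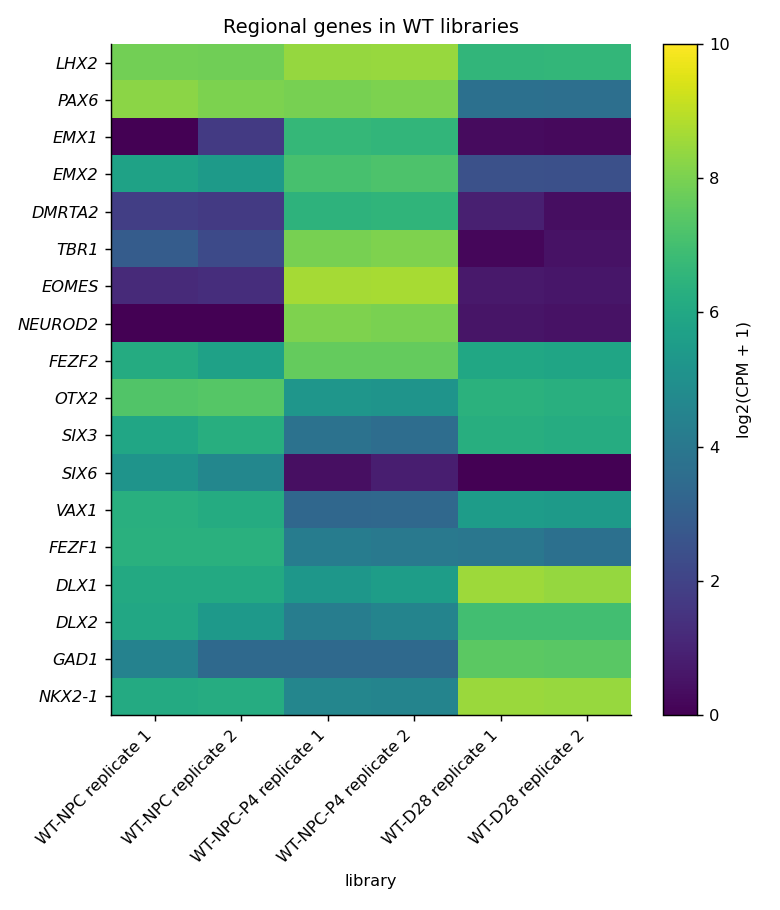
Heat map of log2(CPM + 1) (color) of 18 regional genes (rows) in the 2 libraries each of WT-NPC, WT-NPC-P4 and WT-D28 (columns). EMX1, DMRTA2, TBR1, EOMES and NEUROD2 are bright in WT-NPC-P4 alone, SIX6 in WT-NPC alone, and DLX1, GAD1 and NKX2-1 are brightest in WT-D28.

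Retinoic acid genes fell. Retinol is taken up by STRA6, oxidised by RDH10 and the ALDH1A enzymes, and the acid is bound by CRABP proteins and the RAR receptors. Of 12 tested members 7 fell and none rose, with a median of -2.19. For uptake and synthesis, STRA6 fell from 112 and 121 CPM to 23.4 and 31.6 CPM, RDH10 from 43.1 and 36.5 CPM to 7.02 and 8.73 CPM, and ALDH1A3 from 205 and 160.3 CPM to 4.01 and 4.88 CPM (-5.32 ± 0.40, adjusted p = 4.1e-06). The groups were widely apart for ALDH1A3. For binding, CRABP1 fell from 240.2 and 236 CPM to 27.7 and 26.97 CPM and CRABP2 from 221 and 248 CPM to 25.4 and 19.3 CPM. RARB, a receptor that is also a retinoic acid target, fell with a log2 fold change of -2.36 ± 0.54, a call lost without the second WT-NPC library (-2.36 became -1.74, unadjusted p = 0.0577).

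Signalling lists moved in both directions, with more members falling. Of 24 tested Notch genes 7 fell and 3 rose. Among ligands JAG1 fell from 191 and 242 CPM to 53.4 and 51.1 CPM, DLK1 fell from 1247 and 1642 CPM to 111 and 108 CPM (-3.72 ± 0.14, adjusted p = 3.3e-11), and DNER, a neuronal ligand, rose (2.23 ± 0.22). Among targets HEY1 (-2.77) and HES1 fell.

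Of 41 tested Wnt genes 15 fell and 7 rose. Among ligands and agonists WNT8B, of the cortical hem, read 1.31 and 0 CPM and 19.7 and 14.6 CPM, and RSPO3 1.31 and 0.745 CPM and 44.8 and 42.6 CPM. Both were higher at passage 4. Among receptors FZD5, of the eye field, fell from 352 and 405 CPM to 21.0 and 21.8 CPM (-4.15 ± 0.41), and LGR4 fell from 175 and 164 CPM to 21.4 and 26.97 CPM. The secreted inhibitor SFRP2 fell from 377 and 357 CPM to 3.67 and 6.42 CPM (-6.13 ± 0.79, adjusted p = 0.0012). Within the cell, LEF1, a nuclear effector, fell (-2.83), and APC, of the beta-catenin destruction complex, rose (2.67 ± 0.16).

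In the FGF pathway 8 of 28 tested genes fell and 3 rose, or 6 rose without the second WT-NPC library. The ligand FGF2 fell (-1.15 ± 0.25), as did the feedback phosphatase DUSP4 (-1.73 ± 0.19) and the ETS target ETV5 (-1.32 ± 0.18). Of 29 tested BMP and TGF-beta genes 7 fell, or 4 without the second WT-NPC library. In this list 4 rose, ID2, a BMP target, among them (2.37 ± 0.22). Of 13 tested hedgehog genes 2 fell, NKX2-1 and the receptor and target gene PTCH1 (-1.47 ± 0.16), and 1 rose.

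Of 37 tested axon guidance genes 13 rose and 6 fell. Those that rose included the receptors EPHA5, from 3.92 and 5.22 CPM to 98.5 and 135 CPM (4.62 ± 0.33), PLXNA4 (3.47 ± 0.41) and ROBO1 (1.84 ± 0.11). The ligand NTN1, netrin-1, fell (-1.63 ± 0.16).

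Proliferation genes lay mostly somewhat lower at passage 4, and few passed the 2-fold threshold. The median log2 fold change was -0.50 for the S phase and -0.39 for the G2/M list, against 0.01 for all genes, with 37 of 42 and 44 of 54 members below 0. The summed S phase list was 3858 to 3909.8 CPM in WT-NPC and 2571 to 2665 CPM in WT-NPC-P4, and the G2/M list 8731 to 9307 CPM and 7433 to 8138 CPM, with no overlap between passages for either. MKI67 read 548 and 556 CPM and 531 and 648 CPM (0.10 ± 0.14, not called), and its sign turned without the second WT-NPC-P4 library. Of 42 tested S phase genes 5 fell, HELLS among them (-1.55 ± 0.22), and of 54 tested G2/M genes 3 fell, CKS1B among them (-1.62 ± 0.46). None rose in either list. The S phase count was 8 without the second WT-NPC library, 8 without the second WT-NPC-P4 library and 10 with thinned libraries. The G2/M count was 5 without the first WT-NPC library, 1 without the second and 5 without the second WT-NPC-P4 library. Among G1 regulators 4 of 30 rose and 5 fell, or 3 without the second WT-NPC-P4 library. CCND1, cyclin D1, fell from 261 and 236 CPM to 45.8 and 45.7 CPM (-2.44 ± 0.16, adjusted p = 1.2e-08), and CDKN2C, the CDK4/6 inhibitor p18, rose from 7.83 and 5.22 CPM to 50.4 and 47.0 CPM (2.96 ± 0.30).

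Extracellular matrix genes fell more often than they rose. Of 43 tested collagens, integrins and laminins 15 fell and 8 rose. COL2A1, a collagen of early neuroepithelium and cartilage, fell from 685 and 745 CPM to 47.8 and 52.4 CPM (-3.83 ± 0.14, adjusted p = 2.7e-11). FN1, fibronectin, fell from 530.0 and 824 CPM to 216 and 252 CPM (-1.54 ± 0.20). COL3A1 rose from 1.31 and 14.2 CPM to 118 and 126 CPM (3.70 ± 0.51), against the direction of the other 2. Beside these results, the 2 WT-NPC libraries were unequal in mesenchymal markers. COL1A1 read 99.2 and 265 CPM and TAGLN, a smooth muscle actin-binding protein, 120.1 and 297 CPM in WT-NPC, against 21.0 and 28.0 CPM and 16.7 and 14.9 CPM in WT-NPC-P4. The summed mesenchyme list was 2385 to 3413 CPM in WT-NPC and 1776 to 1799.6 CPM in WT-NPC-P4, with 7 of 18 tested members lower, 4 higher and the mesenchymal factor TWIST2 listed at 0 in these libraries. The endothelium, epithelium and blood list summed to 102 to 212 CPM and 29.0 to 31.4 CPM. The part of such cells in the falls was not tested.

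Immediate early genes, which respond within minutes to stimulation and to handling of cells, were lower at passage 4. Of 21 tested immediate early and heat shock genes 10 fell and 2 rose. FOS fell from 439 and 446 CPM to 45.8 and 40.1 CPM, FOSB from 188 and 151 CPM to 0.334 and 1.03 CPM, and EGR1 from 894 and 784 CPM to 79.5 and 77.8 CPM. JUNB (-2.86 ± 0.20) fell too. The groups did not overlap for any of the 4. The call of EGR3 (49.6 and 22.4 CPM and 0.334 and 0.257 CPM) was lost without the second WT-NPC-P4 library (unadjusted p = 0.059) and when the libraries were thinned (0.0798).

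Among cell death genes 5 of 28 tested caspases, BCL2 family members and death receptors fell and none rose. CASP6 (-0.52 ± 0.24) and CASP9 (-0.56 ± 0.27) were not called. PMAIP1, the BH3-only protein NOXA, fell (-2.56 ± 0.31), as did the death receptor TNFRSF10B (-1.65 ± 0.13).

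All 15 mitochondrially encoded genes were tested, and 8 rose and none fell, with a median of 1.08. In dKO NPCs 7 of the same genes rose, with a median of 0.93. MT-CO1, a cytochrome oxidase subunit, read 3038 and 2956 CPM in WT-NPC and 10929 and 12519.8 CPM in WT-NPC-P4. With GC content and gene length corrected none of them was called. The share of mitochondrial counts was lower in the passage 2 libraries of both genotypes, and its part in this result was not tested. Of 73 tested ribosomal protein genes, RPL21 and RPS26 were called, both higher.

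Chromatin regulators were mostly not called. Of 22 tested BAF remodelling subunits 2 rose and 1 fell. Those that rose were ACTL6B (BAF53b), the neuronal subunit, from 9.14 and 8.94 CPM to 56.8 and 48.5 CPM (2.54 ± 0.37), and the ATPase SMARCA2 (BRM), from 26.1 and 21.6 CPM to 120.3 and 134 CPM (2.44 ± 0.20, adjusted p = 1.2e-07). In the polycomb, KDM6 and DNA methylation list 4 of 27 tested genes fell and none rose, among them the DNA methyltransferase DNMT3B (-1.47 ± 0.20) and the demethylating enzyme TET1 (-1.29 ± 0.17).

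Among imprinted genes IGF2, a fetal growth factor, fell from 102 and 114 CPM to 1.00 and 2.31 CPM (-5.94 ± 0.71, adjusted p = 4.5e-04), with 4 of 18 tested members lower and 2 higher. In metabolism BCAT1, a branched-chain aminotransferase, fell from 338 and 290.0 CPM to 31.1 and 31.6 CPM (-3.32 ± 0.14). Of 33 tested glycolysis and hypoxia genes 2 rose and 3 fell, SLC2A1 among the latter, with a median of -0.02. Of 25 sterol synthesis genes none rose and 2 fell, or none without the first WT-NPC-P4 library.

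The passage difference in dKO NPCs, which shares no library with the WT one, was set beside it. In dKO NPCs 620 genes (4.61%) were higher at passage 4 and 702 (5.22%) lower. The 174 genes higher in both genotypes were 12.6% of the WT and 28.1% of the dKO genes, and the 259 lower in both were 20.3% and 36.9%. Another 115 genes higher in WT were lower in dKO NPCs, and 71 lower in WT were higher in dKO NPCs. Across all genes Pearson's r between the 2 sets of log2 fold changes was 0.27, a description over genes, which are not independent replicates. Whatever set the passage 2 libraries of both genotypes apart enters both differences.

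The difference between the WT and the dKO passage difference was tested in the same edgeR model. It was positive for 1287 genes (9.57%) and negative for 1308 (9.72%). Of the 1386 genes higher in WT, 827 (59.7%) had a larger rise than in dKO NPCs by this test, and of the 1277 lower in WT, 775 (60.7%) had a larger fall. The 2 tests share the WT libraries, so these shares are not independent of the choice of genes.

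**Figure D4:**
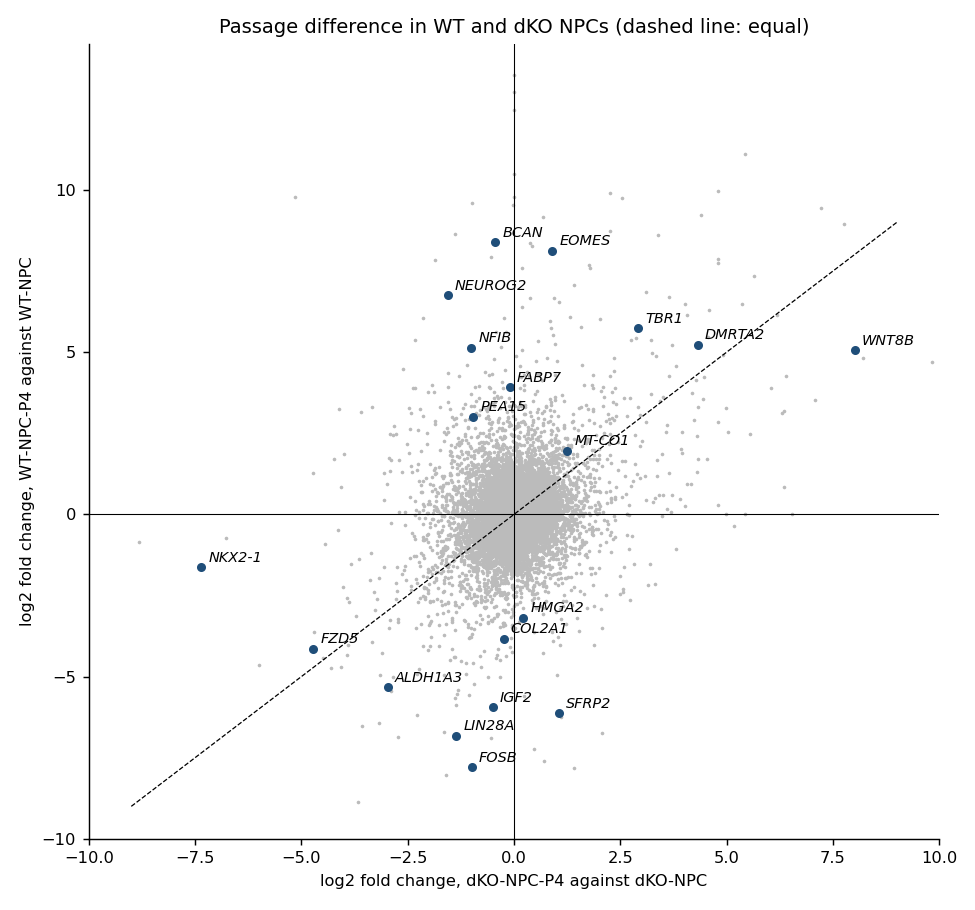
Log2 fold change of passage 4 against passage 2 in WT NPCs (y axis) and in dKO NPCs (x axis) for all 13454 tested genes (gray points), with named genes in blue and a dashed line where both would be equal. NEUROG2, EOMES, BCAN and NFIB lie high at dKO changes of -1.55 to 0.91, HMGA2 and COL2A1 low at 0.22 and -0.24, and WNT8B, DMRTA2, ALDH1A3 and FZD5 moved the same way in both genotypes.

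By list, the dKO passage difference went with the WT one in some and not in others. GABAergic ventral forebrain genes had a dKO median of -1.14, with 11 of 19 lower and 2 higher. The dKO median was -1.20 for eye and hypothalamus genes, -0.49 for the S phase list and -0.69 for the G2/M list. Other lists differed from WT. In dKO NPCs proneural genes had a median of -1.23 with 8 of 16 lower, and pan-neuronal genes one of -0.32 with 5 of 37 lower and none higher. EOMES read 1.501 and 1.41 CPM in dKO-NPC and 2.81 and 2.70 CPM in dKO-NPC-P4, and its passage difference was larger in WT than in dKO NPCs (adjusted p = 5.9e-05). NEUROD6 and NEUROD2 had no count in any dKO NPC library, so no fold was available there, and the difference was not called for either (adjusted p = 1). The fetal timing list had a dKO median of -0.26, and HMGA2 read 545 and 612 CPM and 641 and 706 CPM there (difference -3.40 ± 0.21, adjusted p = 5.6e-08). NFIB read 33.8 and 33.9 CPM and 16.9 and 16.9 CPM (difference 6.14 ± 0.40, adjusted p = 1.8e-07). At passage 4, EOMES and NFIB were thus far lower in dKO than in WT NPCs, and HMGA2 far higher.

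Other genes moved with passage in both genotypes. FZD5 read 504 and 543 CPM in dKO-NPC and 17.6 and 22.1 CPM in dKO-NPC-P4, and DMRTA2 1.501 and 1.41 CPM and 30.2 and 29.2 CPM. WNT8B read 0.751 and 0 CPM and 99.3 and 105 CPM. For none of the 3 was the difference between genotypes called after adjustment (adjusted p = 0.536, 0.596 and 0.603), which does not show that the changes were equal. SFRP2, which fell in WT, was not called in dKO NPCs, with 238 and 205 CPM in dKO-NPC and 444 and 476 CPM in dKO-NPC-P4 (difference -7.19 ± 0.97, adjusted p = 0.00264). WFIKKN1, a secreted protease inhibitor, had log2 fold changes of -3.59 in WT and 1.54 in dKO NPCs (difference adjusted p = 4.2e-05).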

How the data were processed

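Total RNA was extracted with TRIzol and libraries were made with a TruSeq RNA kit. The submitters' processing notes name HISAT2 2.0.4, SAMtools 1.3.1, HTSeq 0.6.0 and DESeq 1.18.1 and build hg38. The annotation release and whether counting used strand are not given in the sources used here, so a gene and an overlapping antisense gene cannot be told apart. The deposited values are raw counts per gene made by the authors, 1 file a library. Gene symbols were taken from GENCODE release 44, which held 57532 of the 58302 identifiers.

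The counts of all 12 libraries in 6 groups were fitted together in edgeR 4.0.16 (R 4.3.3) with TMM scaling and the robust quasi-likelihood test, after the filter on a mean of at least 20 counts. This filter and the thresholds of a call, p below 0.05 without adjustment and more than 2-fold, follow the study's methods. Some genes are not reported here. Adjusted p-values are Benjamini-Hochberg values over all tested genes, and errors are the log2 fold change over the square root of F. For 2 libraries against 2 an exact permutation of a single value cannot give p below 0.333, so calls rest on the spread pooled across genes. The comparison of passage differences between genotypes was a contrast in the same model. Ratios with 1 to 3 counts in a group carry exact 95% binomial intervals, which cover counting error only. The scripts were tested on simulated data.

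The members and gene lists were chosen with earlier results of these data known. Named genes were KDM6A and KDM6B, genes the study measured by qRT-PCR or staining, the 10 largest rises and falls at 20 CPM or more, the 5 largest gains and losses in CPM, up to 4 leading members of each list in each direction, and the 6 largest differences from dKO NPCs in each direction. The rule did not give 36 of the 148 tested genes named, such as PTN, LHX2, APC, TBR1, DCX and FOS, which were chosen after their values were seen for their known roles. Alternatives were DESeq2 1.42.0, upper-quartile scaling, the adjusted p, a fit of the compared samples alone, other filters, thinning, a block for the replicate number, adjustment for length and GC content, and leaving out each library.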

Additional observations from a re-analysis of the deposited data

Results flagged for a closer look

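Of the 148 genes named in the text, 135 were called between WT passages. For 97 of these the passage difference was not the same in WT and in dKO NPCs. This was judged by the edgeR test of the difference itself (adjusted p below 0.05 and a difference of more than 2-fold). Many genes were named because they were called in WT or differed from dKO NPCs, so these counts follow in part from the choice. Among all tested genes, the same thresholds gave a more positive difference in WT for 1037 genes and a more negative one for 1024. The values below are the log2 passage difference in WT minus that in dKO NPCs, so a positive value marks a more positive difference in WT. For genes with few or no counts in a group the fitted value depends on the prior count and is no bound. Some genes, such as BHLHE22, NEUROG2, NEUROG1, EMX1 and SNCB, passed the filter only with their WT-NPC-P4 counts. Outside WT-NPC-P4, BHLHE22 read 1.35 CPM or less and NEUROG2 8.97 CPM or less. The adjusted p-values of such genes, which enter the ranges below, are not used as support. No outlier test applied, since each group held 2 libraries.

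Among genes that rose in WT and were not called in dKO NPCs, many of them neuronal, proneural or glial, the difference was 8.84 for BCAN, 8.47 for BHLHE22, 8.31 for NEUROG2, 7.71 for SNCB, 7.22 for EOMES, 6.30 for NFIX, 5.50 for GRIN2B, 5.46 for PTN and 5.14 for NFIA. Next came 5.08 for NSG2, 4.85 for SLC1A3, 4.79 for GRIA2, 4.76 for EMX1, 4.03 for GRIA1, 4.02 for FABP7, 3.97 for PEA15, 3.92 for PLXNA4 and 3.73 for BCL11B. These were followed by 2.95 for APC, 2.77 for HES6, 2.45 for SMARCA2, 2.43 for GFAP, 2.39 for MAP2, 2.24 for TUBA1A, 2.22 for ROBO1, 2.20 for ACTL6B and 1.93 for DNER. Further values were 1.85 for STMN2. These edgeR adjusted p-values ran from 4.4e-10 to 0.0483. For genes that rose in WT and fell in dKO NPCs the difference was 14.93 for IL33, 8.17 for SEZ6, 6.65 for FAM107A, 6.14 for NFIB, 5.72 for EPHA5, 5.67 for NEUROG1, 5.46 for TNC, 4.32 for CDKN2C and 3.68 for INSM1. Next came 3.12 for PTPRZ1 and 3.07 for DCX. Their edgeR adjusted p-values ran from 1.8e-07 to 0.00571. IL33 read 0.751 and 1.41 CPM in dKO-NPC and had no count in dKO-NPC-P4 or WT-NPC, so its fall in dKO NPCs rests on very few counts. For genes that rose in both genotypes, and more in WT, it was 2.82 for TBR1 and 1.11 for ID2. These edgeR adjusted p-values ran from 0.0123 to 0.0269.

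Among genes that fell in WT and were not called in dKO NPCs, among them genes of early progenitors and matrix, the difference was -7.19 for SFRP2, -6.80 for FOSB, -5.44 for IGF2, -3.94 for LIN28B, -3.72 for TRIM71, -3.62 for SALL4, -3.59 for COL2A1, -3.53 for PRTG and -3.51 for ZBTB16. Next came -3.44 for LEF1, -3.40 for HMGA2, -3.36 for CRABP2, -3.08 for IGF2BP1, -2.67 for COL1A1, -2.58 for FOS, -2.55 for PMAIP1, -2.43 for BCAT1 and -2.39 for JUNB. These were followed by -2.29 for SLC2A1, -2.29 for CCND1, -2.16 for HMGA1, -2.08 for DUSP4, -2.06 for FN1, -1.98 for ETV5, -1.91 for STRA6, -1.89 for TNFRSF10B and -1.88 for PDGFRA. Further values were -1.87 for PROM1, -1.85 for CUX2, -1.81 for OTX2, -1.65 for FEZF1, -1.61 for JAG1, -1.41 for PXDN, -1.13 for DNMT3B, -1.11 for IGF2BP3 and -1.10 for HELLS. Then came -1.09 for IGF2BP2. Their edgeR adjusted p-values ran from 7.7e-09 to 0.0479. For genes that fell in WT and rose in dKO NPCs it was -5.13 for WFIKKN1, -4.85 for RDH10 and -2.42 for CSPG4. These edgeR adjusted p-values ran from 4.2e-05 to 0.00404. For genes that fell in both genotypes, and more in WT, it was -5.46 for LIN28A, -5.22 for ANKRD1, -4.50 for ATP6V1B1, -4.21 for SIX6, -4.11 for F13A1, -3.92 for MAGED4B, -2.36 for ALDH1A3, -2.09 for DLK1 and -1.65 for EGR1. Next came -1.43 for VAX1, -1.42 for SIX3, -1.40 for LGR4, -1.15 for HEY1 and -1.10 for CRABP1. Their edgeR adjusted p-values ran from 7.8e-07 to 0.0451. For genes that fell in both genotypes, and less in WT, it was 5.73 for NKX2-1 and 1.13 for NTN1. These edgeR adjusted p-values ran from 1.2e-06 to 0.00188.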

How the results depend on the processing

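The counts of called genes stayed within 1.5 times under every alternative except the filters. With genes of at least 1 count in any library, 2113 were higher and 2369 lower in WT-NPC-P4; with at least 10 counts in every library, which removes genes absent from 1 group, 649 were higher and 812 lower, and the difference from dKO NPCs was positive for 800 and negative for 792. Leaving out 1 library gave 1344 to 1426 higher and 1220 to 1317 lower genes, and 1188 to 1309 positive and 1143 to 1290 negative differences. At similar counts the genes were not all the same, since thinning to 756942 counts a library kept 1164 of the 1386 higher and 993 of the 1277 lower genes, and leaving out the second WT-NPC library kept 1085 and 1014. Where a gene's call was lost its value stands in the text, to which the loss of CSPG4 under thinning, under the GC and length correction and without the first WT-NPC-P4 library (-0.99) is added; the causes were not tested. Signs turned for GAD1, at 0.0055 without the first WT-NPC library, and for MKI67, at -0.056 without the second WT-NPC-P4 library (ranges over left-out libraries -1.10 to 0.0055 and -0.056 to 0.23). The number of counts in WT-NPC limits low genes, and passage and any batch of the passage 2 libraries cannot be told apart.

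The replicate numbers were not shown to pair libraries, since deviations from the group means correlated at 0.018 on average (-0.055 to 0.182 over 15 pairs of groups). With the replicate block 1378 genes were higher and 1288 lower, and with the block and the GC and length correction 1368 and 1266.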

Other observations

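Of 21 tested genes of the dorsal neural tube and neural crest, which mark roof plate, cortical hem and migrating crest cells, 5 rose in WT-NPC-P4 and 2 fell. In dKO NPCs 13 of them were higher at passage 4 and none lower. Of 9 tested genes of midbrain, hindbrain and spinal cord, 3 rose and 3 fell in WT NPCs, and of 11 choroid plexus and ependyma genes 1 rose and 1 fell. Of 11 tested interferon and MHC class I genes 4 rose and none fell. Of 26 tested amino acid response and one-carbon genes 1 rose and 5 fell, or 2 without the second WT-NPC library and 3 with thinned libraries. The shares called in WT NPCs in these lists are to be read against the 10.3% higher and 9.49% lower among all genes. Those in dKO NPCs are to be read against 4.61% higher and 5.22% lower.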
